A study of Danio rerio with 20 samples.

Results

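The genes of the 26S proteasome, the protease that degrades ubiquitin-tagged proteins, were followed in livers of zebrafish larvae with and without arsenite. They were taken by name: every Ensembl identifier whose symbol starts with psm, one of the letters a to g and a digit, leaving out the immunoproteasome variants of the beta subunits. The rule gave 52 of the 32105 identifiers counted. These are 10 genes of the 20S alpha ring, 7 of the 20S beta ring, 12 of the 19S base, 9 of the 19S lid, 6 assembly factors and 6 activators or inhibitors. A further 2 share only the start of the name. The 38 genes of the rings, the base and the lid are called subunits below, and symbols follow the name table, which gives many of them in capitals.

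RNA was sequenced from microdissected livers of larvae 5 days after fertilization, 5 libraries per group, each from a pool of 12 to 15 livers. Exposed mutants carried on both alleles an 8 bp CRISPR deletion in exon 3 of as3mt, the arsenite methyltransferase gene, on the ABNYU background. They were kept in 1 mM sodium arsenite, 20 to a well, starting 96 h after fertilization, and dissected near 119 h. Unexposed mutants were the same line at 0 mM. Exposed wild-type larvae were of the TAB5 strain with the same 1 mM treatment, and unexposed wild-type larvae were TAB5 at 0 mM. The deletion is carried in the whole body and the strains differ, so the mutation and the strain background cannot be told apart in any comparison of genotypes. The replicate names end in cl1 to cl5 in each group, and what cl stands for is not spelled out. They do not say that pools came from separate clutches, so p-values measure only the spread between these pools.

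The proteasome core is a barrel of stacked rings. The outer alpha rings hold the gate, and the inner beta rings carry the active sites. The 19S regulatory particle sits on the barrel: its lid removes ubiquitin chains, and its base, a ring of ATPases with scaffold and ubiquitin-receptor subunits, unfolds the substrate and feeds it into the core. Dedicated chaperones build the rings and the base and are absent from the finished enzyme. In mammals the transcription factor NFE2L1 raises proteasome genes together when proteasome activity is short. Arsenite binds thiol groups of proteins, and liver cells make and turn over protein at a high rate.

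Library totals ran between 25406597 and 42047561 counts, and levels are CPM values, a gene's count scaled to library size with edgeR's TMM factors, from which no order of levels between genes is read. A ± beside a level is an SD over 5 libraries, and beside a log2 value a standard error. AS3MT itself averaged 13.1 ± 4.21 CPM in exposed mutants, 72.7 ± 9.30 in unexposed mutants, 45.9 ± 18.4 in exposed wild type and 125 ± 7.09 in unexposed wild type (SD, n = 5 each). It was lower in mutants both with arsenite (log2 difference -1.81, adjusted p = 9.34e-06) and without it (-0.78, adjusted p = 0.0213), though a deletion of a few bases need not change a transcript's level. All 15 hepatocyte markers were detected in the libraries and were tested. Their summed level was 45564 to 69301 CPM in mutants with arsenite, 236453 to 272336 CPM in mutants without it, 79680 to 143394 CPM in wild type with arsenite and 285526 to 308058 CPM in wild type without it. In each wild-type group 1 library stood apart in the proteasome genes. Unexposed wild-type replicate 1 had the highest subunit levels of its group, a median of 0.32 on the log2 scale above the group's mean, and a summed macrophage and neutrophil marker level of 472 CPM, against 14.2 to 34.1 CPM in the other unexposed wild-type libraries. Exposed wild-type replicate 5 had the lowest subunit levels of its group, a median of 1.41 above the unexposed wild-type mean on the log2 scale, against 1.57 to 1.68 in the rest of its group. Mutant libraries also varied on this scale. Unexposed mutant replicate 4 had a median of -0.40, against -0.23 to -0.15 in the rest of its group. Exposed mutant replicate 1 had 1.68, against 1.81 to 1.96. The summed macrophage and neutrophil markers were also raised in unexposed mutant replicate 2, at 121 CPM, against 15.4 to 40.8 CPM in the rest of its group. The libraries said below to stand apart are the 2 wild-type ones, and the mutant libraries were only left out singly.

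Nearly every proteasome gene was higher with arsenite in both genotypes. In mutants 49 of 52 genes were called higher with arsenite (edgeR's quasi-likelihood test, Benjamini-Hochberg adjusted p under 0.05), where 31.5% of all genes tested were called higher, and 0 were called lower, against 30.3% of all genes. In wild type 49 of 52 were called higher, where 28.7% of all genes were, and again 0 were called lower, against 24.6% of all genes. An unadjusted p under 0.05 gave 0 lower members in either genotype, and so did DESeq2. The 49 genes were the same in both genotypes. All 52 passed the filter on low counts, so these are counts over all members. The alpha-ring gene psma6l passed it through the exposed libraries, so its call is not read as a result. Without psma6l, 37 of 37 subunits were called higher in each genotype. The median log2 change over the 52 genes was 2.09 in mutants, against 0.00 over all genes tested, and 1.56 in wild type, against 0.03 over all genes tested. In mutants the 5 exposed and 5 unexposed libraries did not overlap for 48 genes, with the exposed ones higher (25.1% of all genes tested), and in wild type for 46 genes (18.7% of all genes tested). The 48 include psma6l, whose separation is not read as a result either. Without psma6l, 37 of 37 subunits were separated in each genotype. These are bulk tissue values, in which fewer cells of a type and less RNA per cell cannot be told apart. All 15 hepatocyte markers were called lower with arsenite in each genotype, and the part of that fall in the proteasome result was not tested. With total counts in place of TMM sizes the median of all genes moved to 0.83 in mutants and 0.75 in wild type. Of all genes called, 83.4% were then higher in mutants, against 51.0% with TMM, and 88.1% in wild type, against 53.8% with TMM. The proteasome genes' median then lay 2.11 above it in mutants and 1.54 above it in wild type, against 2.09 and 1.53 with TMM.

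**Figure D1:**
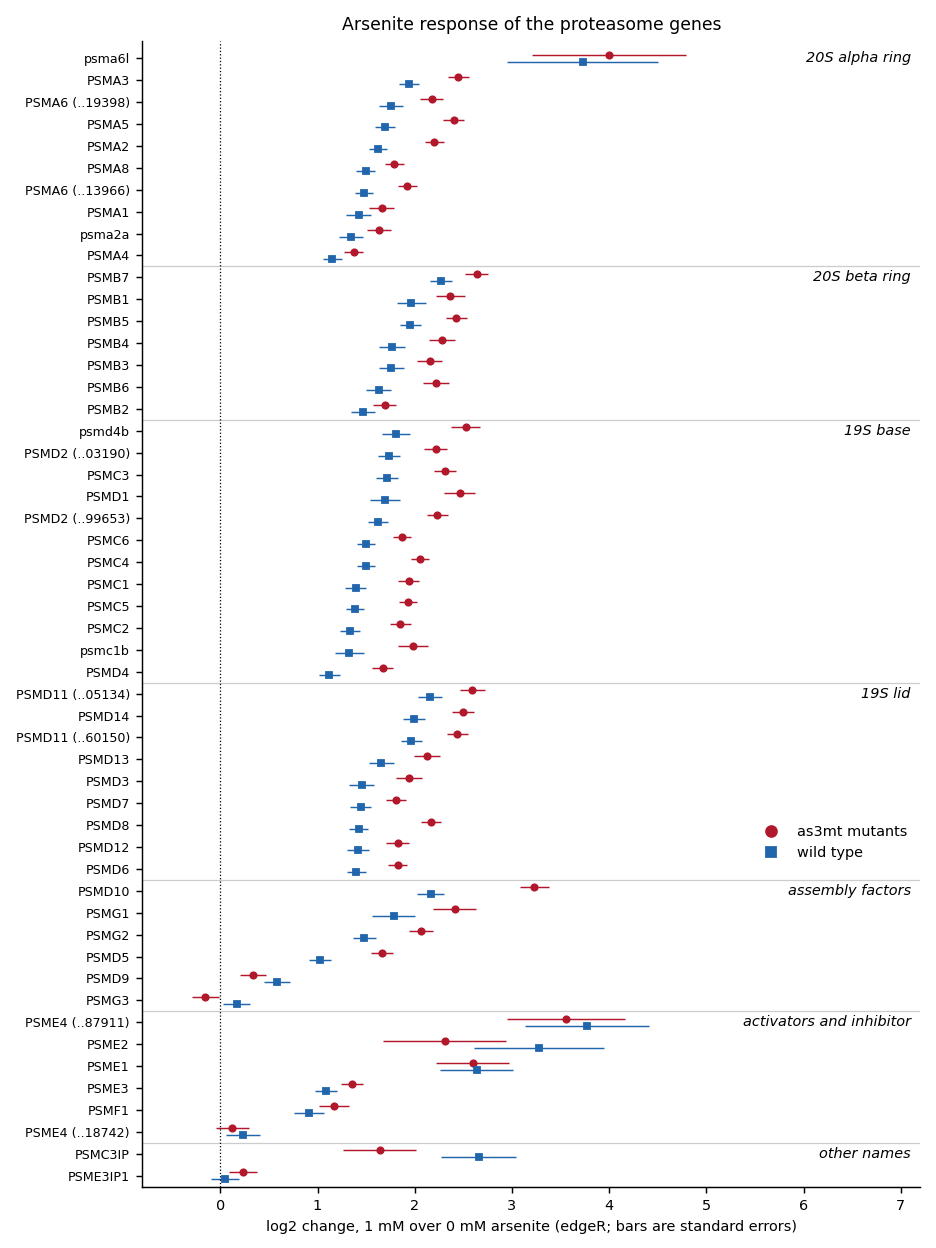
The log2 change with arsenite (1 mM over 0 mM, horizontal axis) is drawn for each of the 52 genes, grouped by class, for mutants (red circles) and wild type (blue squares) with standard errors. All subunits lie to the right of 0 and each red circle of a subunit lies to the right of its blue square, while PSMG3, PSME4 (ENSDARG00000018742) and PSME3IP1 lie near 0.

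The alpha-ring genes other than psma6l were all called higher with arsenite in both genotypes. The median log2 change over the 10 genes of the ring, psma6l counted among them, was 2.05 in mutants and 1.56 in wild type. PSMA5 (ENSDARG00000003526) had 205, 225, 217, 215 and 229 CPM in exposed mutants, against 36.6, 41.4, 48.2, 38.2 and 42.4 CPM in unexposed mutants. In wild type it had 149, 162, 177, 186 and 159 CPM in exposed livers, against 64.4, 47.3, 55.3, 44.9 and 45.8 CPM in unexposed livers. Exposed and unexposed libraries were far apart in both genotypes, and the log2 change was 2.40 ± 0.11 in mutants (SE, adjusted p = 6.60e-13) and 1.69 ± 0.11 in wild type (adjusted p = 1.91e-10). The smallest change of the ring was that of PSMA4 (ENSDARG00000045928), at 1.37 ± 0.10 in mutants and 1.15 ± 0.10 in wild type. It averaged 176 ± 2.93 CPM in exposed mutants, 67.8 ± 7.14 in unexposed mutants, 157 ± 15.1 in exposed wild type and 70.6 ± 9.10 in unexposed wild type, and its exposed libraries still lay above all unexposed ones within each genotype. PSMA3 (ENSDARG00000086618) changed by 2.45 ± 0.11 in mutants and 1.94 ± 0.11 in wild type, the largest changes in the ring apart from psma6l.

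The gene psma6l (ENSDARG00000043899), named as a relative of the ring subunit PSMA6, was barely expressed without arsenite and varied widely between libraries. It had 2.05, 9.44, 5.20, 3.63 and 3.28 CPM in exposed mutants, against 0.0473, 0.433, 0.207, 0.115 and 0.613 CPM in unexposed mutants. In wild type it had 7.80, 2.33, 13.1, 5.58 and 0.954 CPM in exposed livers, against 1.51, 0.529, 0.190, 0.0807 and 0.0351 CPM in unexposed livers. The exposed mutant libraries all lay above the unexposed mutant ones, whereas exposed wild-type replicate 5 lay below unexposed wild-type replicate 1. The log2 changes of 4.00 ± 0.79 in mutants and 3.73 ± 0.77 in wild type carry standard errors several times those of the other ring genes. Some unexposed libraries held as few as 1 read. Since psma6l passed the filter on low counts through the exposed libraries, its calls and the size of its changes are not read as results. The 9 other alpha-ring genes changed by at most 2.45.

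The 3 beta subunits with active sites were called higher with arsenite in both genotypes. PSMB5 (ENSDARG00000075445), which carries the chymotrypsin-like site, had 263, 279, 282, 292 and 317 CPM in exposed mutants, against 50.9, 54.4, 56.8, 46.8 and 57.9 CPM in unexposed mutants. In wild type it had 241, 238, 238, 287 and 254 CPM in exposed livers, against 77.7, 56, 73.9, 56.1 and 60.8 CPM in unexposed livers. Every exposed library held over 3 times the level of any unexposed one of its genotype, and the log2 change was 2.42 ± 0.11 in mutants (adjusted p = 4.27e-13) and 1.96 ± 0.11 in wild type (adjusted p = 1.89e-11).

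PSMB6 (ENSDARG00000002240), with the caspase-like site, had 151, 181, 158, 180.2 and 145 CPM in exposed mutants, against 33, 38.7, 35.1, 31.2 and 36.9 CPM in unexposed mutants. The wild-type values were 166, 164, 145, 148 and 109.6 CPM in exposed livers, against 60.7, 46.6, 48.4, 37.8 and 43 CPM in unexposed livers. Its log2 change was 2.22 ± 0.13 in mutants and 1.63 ± 0.13 in wild type, with exposed replicate 5 the lowest exposed library in each genotype. PSMB7 (ENSDARG00000037962), with the trypsin-like site, had the largest change of the ring. Its levels were 396, 424, 411, 438 and 386 CPM in exposed mutants, against 69.96, 64.7, 68.1, 54.7 and 73.2 CPM in unexposed mutants, and 367, 392, 320.4, 391 and 298 CPM in exposed wild type, against 88.9, 62.3, 78.5, 63.7 and 72.9 CPM in unexposed wild type. The changes of 2.64 ± 0.12 in mutants (adjusted p = 4.04e-13) and 2.27 ± 0.11 in wild type (adjusted p = 6.86e-12) correspond to 6.22-fold and 4.83-fold higher levels.

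The 4 beta subunits without an active site changed by 1.69 to 2.37 in mutants and by 1.47 to 1.96 in wild type. PSMB2 (ENSDARG00000031511) was at the low end in both. It averaged 98.4 ± 8.39 CPM in exposed mutants and 30.5 ± 2.58 in unexposed mutants, and 90.6 ± 12.4 CPM in exposed wild type and 32.7 ± 5.57 in unexposed wild type. The median change over the 7 beta-ring genes was 2.28 in mutants and 1.77 in wild type, and the libraries of all 7 were separated by arsenite in both genotypes.

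**Figure D2:**
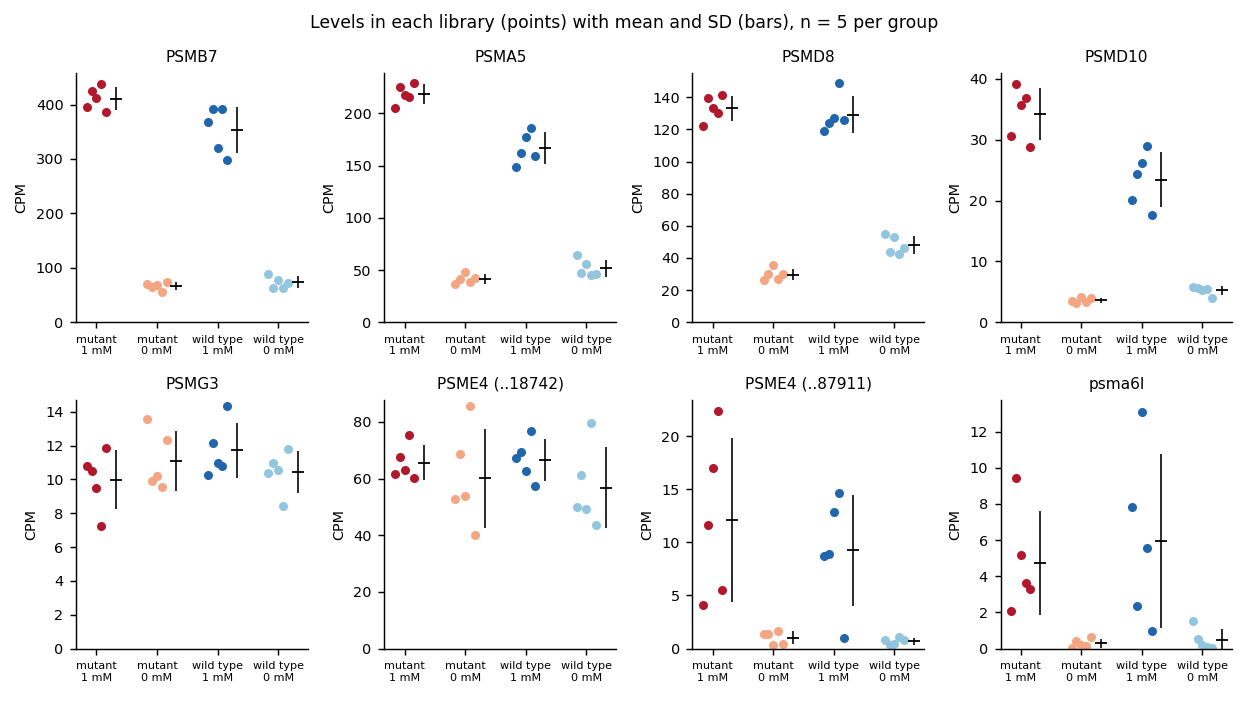
Levels in CPM (vertical axes, from 0) are shown for 8 genes in each library (points), with the mean and SD (bars, n = 5 per group), for mutants and wild type at 1 mM and 0 mM arsenite. PSMB7, PSMA5, PSMD8 and PSMD10 are separated by arsenite in both genotypes, PSMG3 and PSME4 (ENSDARG00000018742) overlap in all groups, and PSME4 (ENSDARG00000087911) and psma6l are high in exposed libraries with a wide spread.

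All 12 genes of the 19S base were called higher with arsenite in both genotypes, with no overlap between exposed and unexposed libraries. The 7 ATPase genes are PSMC1 to PSMC6 and psmc1b, named for the same subunit as PSMC1, and they encode the ring that pulls substrates apart. Their changes lay close together, between 1.85 and 2.31 in mutants and between 1.33 and 1.72 in wild type. PSMC4 (ENSDARG00000027099) had 245, 273, 272, 276 and 268 CPM in exposed mutants, against 63.2, 64.3, 65.6, 59.9 and 68.3 CPM in unexposed mutants. In wild type it had 227, 213, 213, 246 and 207 CPM in exposed livers, against 96.1, 76.6, 81.7, 67.4 and 69.2 CPM in unexposed livers. Its change was 2.05 ± 0.09 in mutants (adjusted p = 7.35e-13) and 1.50 ± 0.09 in wild type (adjusted p = 1.51e-10), with no library of one dose near those of the other.

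Among the 5 other base genes, psmd4b (ENSDARG00000023279) had the largest change and PSMD4 (ENSDARG00000101295) the smallest. Both are named for the ubiquitin receptor Rpn10 of the base. The levels of psmd4b were 90.7, 102, 108, 112 and 101 CPM in exposed mutants, against 17.2, 19.7, 18.7, 18 and 16.1 CPM in unexposed mutants, and 73.6, 68.3, 76.2, 74.9 and 69.5 CPM in exposed wild type, against 31.7, 20.4, 18.5, 14.3 and 19.1 CPM in unexposed wild type. PSMD4 had 34.3, 38.4, 36, 36 and 37.9 CPM in exposed mutants, against 11.8, 12, 12.7, 9.48 and 11.4 CPM in unexposed mutants, and 36.1, 31.2, 29, 32.4 and 29.9 CPM in exposed wild type, against 18.3, 14.9, 13.5, 11.7 and 14.6 CPM in unexposed wild type. The change of psmd4b was 2.52 ± 0.15 in mutants and 1.80 ± 0.15 in wild type, and that of PSMD4 1.67 ± 0.11 in mutants and 1.12 ± 0.11 in wild type. The scaffold gene PSMD1 (ENSDARG00000003189) changed by 2.46 ± 0.16 in mutants and 1.69 ± 0.15 in wild type.

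All 9 lid genes were called higher with arsenite in both genotypes, with a median log2 change of 2.12 in mutants and 1.45 in wild type. PSMD11 (ENSDARG00000005134), one of 2 identifiers with that symbol, had the largest change. PSMD11 encodes the lid subunit that clamps the core to the regulatory particle. This identifier had 82.6, 83.6, 101, 87.8 and 93.6 CPM in exposed mutants, against 12, 15.5, 14.7, 16.9 and 15.4 CPM in unexposed mutants, and 76.8, 72.2, 81, 96.2 and 71.8 CPM in exposed wild type, against 21.4, 16.4, 20.2, 14.3 and 16.7 CPM in unexposed wild type. The log2 change was 2.59 ± 0.13 in mutants (adjusted p = 1.33e-12) and 2.16 ± 0.12 in wild type (adjusted p = 4.55e-11).

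PSMD14 (ENSDARG00000063100), the deubiquitinase of the lid, changed by 2.50 ± 0.12 in mutants and 1.99 ± 0.12 in wild type. It averaged 159 ± 16.2 CPM in exposed mutants and 28.2 ± 2.10 in unexposed mutants, and 133 ± 15.4 CPM in exposed wild type and 33.4 ± 5.39 in unexposed wild type. The smallest lid change in wild type was that of PSMD6 (ENSDARG00000070674), at 1.40 ± 0.10, with 184, 207, 179, 203 and 171 CPM in exposed livers, against 85.8, 65.9, 74.9, 61.6 and 69.5 CPM in unexposed livers. In mutants it changed by 1.82 ± 0.10, with 213, 238, 217, 240.1 and 219 CPM in exposed livers, against 62.5, 65.7, 71.9, 55.1 and 63 CPM in unexposed livers. Even for this gene every exposed library lay far above every unexposed one of its genotype.

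The assembly factors behaved less alike than the subunits. PSMD10 (ENSDARG00000015628), known in mammals as gankyrin, a chaperone of the base ATPase PSMC4, had the largest change among them. It had 30.7, 39.1, 35.7, 36.8 and 28.7 CPM in exposed mutants, against 3.55, 3.17, 4.14, 3.39 and 4.01 CPM in unexposed mutants. In wild type it had 20.1, 24.3, 26.1, 28.9 and 17.6 CPM in exposed livers, against 5.84, 5.67, 5.27, 5.49 and 3.93 CPM in unexposed livers. Its log2 change of 3.23 ± 0.15 in mutants (adjusted p = 7.58e-13), 9.36-fold, compares with 2.16 ± 0.14 in wild type (adjusted p = 3.72e-10), 4.48-fold.

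PSMG1 (ENSDARG00000040620) and PSMG2 (ENSDARG00000035987), whose proteins pair to start the alpha ring, were also higher. PSMG1 had 34.7, 76.7, 43.3, 54.8 and 57.7 CPM in exposed mutants, against 9.55, 10.5, 9.31, 8.53 and 12.4 CPM in unexposed mutants, and 36.7, 42.4, 32.6, 24.2 and 19.9 CPM in exposed wild type, against 10.6, 10.7, 8.76, 6.33 and 8.92 CPM in unexposed wild type. PSMG2 had 39.9, 42.4, 46.1, 53.1 and 41.8 CPM in exposed mutants, against 11.5, 11, 10.1, 9.48 and 11.4 CPM in unexposed mutants, and 27.6, 33, 32.2, 34.8 and 24.5 CPM in exposed wild type, against 13.6, 9.28, 10.8, 9.72 and 11.1 CPM in unexposed wild type. The changes were 2.41 ± 0.22 in mutants and 1.78 ± 0.22 in wild type for PSMG1, and 2.06 ± 0.12 in mutants and 1.48 ± 0.12 in wild type for PSMG2.

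PSMG3 (ENSDARG00000098391), whose protein also takes part in building the alpha ring, was not called in either genotype. It had 10.8, 10.5, 9.51, 7.22 and 11.9 CPM in exposed mutants, against 13.6, 9.88, 10.2, 9.54 and 12.3 CPM in unexposed mutants, and 10.3, 12.2, 11, 10.8 and 14.4 CPM in exposed wild type, against 10.4, 11, 10.5, 8.43 and 11.8 CPM in unexposed wild type. The groups overlapped throughout, with log2 changes of -0.15 ± 0.14 in mutants (adjusted p = 0.357) and 0.17 ± 0.14 in wild type (adjusted p = 0.337). With total counts as library sizes the mutant value turned to 0.68, below the median of 0.83 for all genes on that scale. The base chaperones PSMD5 (ENSDARG00000059046) and PSMD9 (ENSDARG00000006300) were both called higher, PSMD5 by 1.66 ± 0.11 in mutants and 1.03 ± 0.11 in wild type, PSMD9 by 0.34 ± 0.13 in mutants (adjusted p = 0.0340) and 0.58 ± 0.13 in wild type. The call of PSMD9 in mutants was lost without any of 6 single libraries: exposed mutant replicates 1, 2 and 5 and unexposed mutant replicates 2, 3 and 4 (highest adjusted p = 0.0816).

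The activators and the inhibitor, which bind the core in place of the 19S particle or with it, ranged from changes near 0 to changes above 3 on the log2 scale. The 2 identifiers named PSME4, for the activator PA200, were far apart. PSME4 (ENSDARG00000018742) had 61.7, 67.8, 63.2, 75.3 and 60.3 CPM in exposed mutants, against 52.8, 68.6, 54, 85.6 and 39.9 CPM in unexposed mutants, and 67.2, 69.5, 62.5, 76.8 and 57.2 CPM in exposed wild type, against 50.01, 61.1, 49.3, 79.8 and 43.7 CPM in unexposed wild type. It was not called (0.13 ± 0.17 in mutants, adjusted p = 0.545, and 0.23 ± 0.17 in wild type, adjusted p = 0.275). PSME4 (ENSDARG00000087911) had 4.10, 11.6, 16.9, 22.3 and 5.48 CPM in exposed mutants, against 1.32, 1.41, 0.331, 1.67 and 0.398 CPM in unexposed mutants, and 8.72, 8.94, 12.9, 14.6 and 1.03 CPM in exposed wild type, against 0.776, 0.337, 0.417, 1.05 and 0.773 CPM in unexposed wild type. It was called higher by 3.55 ± 0.61 in mutants (adjusted p = 3.60e-05) and 3.77 ± 0.63 in wild type (adjusted p = 4.60e-05), with exposed wild-type replicate 5 within the range of the unexposed libraries. Whether reads of near-identical copies were split between identifiers is not known, so values of genes that share a symbol are less certain.

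PSME1 (ENSDARG00000002165) and PSME2 (ENSDARG00000033144) encode the activator PA28, which interferon gamma raises in mammals. PSME2 had 9.41, 35.5, 26.9, 20.5 and 16.3 CPM in exposed mutants, against 2.46, 11.1, 3.10, 2.24 and 3.00 CPM in unexposed mutants, and 25.3, 13, 68.8, 26.5 and 3.42 CPM in exposed wild type, against 6.66, 2.89, 1.97, 1.29 and 1.48 CPM in unexposed wild type. Its groups overlapped in both genotypes. Exposed wild-type replicate 3 was highest and replicate 5 lowest for PSME1, PSME2 and psma6l alike. The changes were 2.31 ± 0.63 in mutants (adjusted p = 0.00345) and 3.28 ± 0.67 in wild type (adjusted p = 3.34e-04) for PSME2, and 2.59 ± 0.37 in mutants and 2.64 ± 0.38 in wild type for PSME1. The nuclear activator gene PSME3 (ENSDARG00000012234) and the inhibitor gene PSMF1 (ENSDARG00000022652) varied less: PSME3 changed by 1.35 ± 0.11 in mutants and 1.09 ± 0.11 in wild type, and PSMF1 by 1.17 ± 0.16 in mutants and 0.91 ± 0.16 in wild type.

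The last 2 genes are no proteasome parts. PSMC3IP (ENSDARG00000037892), known in mammals as the meiotic recombination factor HOP2, had 2.46, 2.64, 1.38, 1.76 and 2.22 CPM in exposed mutants, against 0.851, 0.757, 0.869, 0.488 and 0.429 CPM in unexposed mutants, and 8.20, 4.80, 3.02, 2.95 and 2.31 CPM in exposed wild type, against 0.639, 0.577, 1.33, 0.484 and 0.316 CPM in unexposed wild type. It was called higher with arsenite by 1.64 ± 0.38 in mutants and 2.66 ± 0.38 in wild type, at the lowest mean count of the 52 genes. PSME3IP1 (ENSDARG00000041631), which encodes a partner of the nuclear activator PSME3, had 23, 19.1, 18.2, 18.2 and 22.5 CPM in exposed mutants, against 18.8, 16.4, 18.2, 14.9 and 17.8 CPM in unexposed mutants, and 19.6, 20.3, 17, 19.4 and 25.5 CPM in exposed wild type, against 23.8, 15.1, 24.4, 14.6 and 20.4 CPM in unexposed wild type. Its groups overlapped and it was not called (0.23 ± 0.14 in mutants, adjusted p = 0.168, and 0.05 ± 0.14 in wild type, adjusted p = 0.789).

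Summed over the 38 subunits, proteasome transcripts took 0.814%, 1.03%, 0.948%, 1.07% and 0.895% of all counts in exposed mutants, against 0.116%, 0.134%, 0.128%, 0.114% and 0.123% in unexposed mutants. In wild type they took 0.737%, 0.670%, 0.671%, 0.727% and 0.526% in exposed livers, against 0.159%, 0.118%, 0.135%, 0.116% and 0.121% in unexposed livers. The 2 doses were far apart in both genotypes, and every exposed mutant library lay above every exposed wild-type library. The mean share was 7.72-fold higher in exposed than in unexposed mutants and 5.13-fold higher in exposed than in unexposed wild type. On TMM-scaled sizes the same ratios were 4.31 in mutants and 3.09 in wild type. These sums are descriptions of the libraries and carry no test.

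Ratios between classes do not depend on how libraries are scaled. The alpha ring's summed counts over the beta ring's were 0.956 to 1.03 in exposed mutants, against 1.24 to 1.37 in unexposed mutants. The wild-type ratio was 0.941 to 1.03 with arsenite, against 1.21 to 1.30 without it. The beta ring's counts thus grew more than the alpha ring's in both genotypes, and exposed and unexposed libraries did not overlap. The lid's counts over the base's were 0.576 to 0.595 in exposed mutants, against 0.634 to 0.678 in exposed wild type, so mutants had fewer lid counts per base count than wild type in every exposed library. Without arsenite this ratio was 0.553 to 0.606 in mutants, against 0.596 to 0.658 in wild type, and the groups overlapped. Core over regulatory particle was 0.897 to 0.951 in exposed mutants, against 0.850 to 0.952 in unexposed mutants. Wild-type libraries had 0.887 to 0.984 with arsenite, against 0.820 to 0.872 without it. The groups were separated in wild type and overlapped in mutants. Assembly factors over subunits was 0.0252 to 0.0304 in exposed mutants, against 0.0308 to 0.0371 in unexposed mutants. Wild type had 0.0223 to 0.0258 with arsenite, against 0.0283 to 0.0341 without it. The chaperones' summed counts thus grew less than the subunits' in both genotypes, which does not hold for each chaperone. The log2 changes of PSMD10 and PSMG1 lay above the subunit median of 2.16 in mutants and 1.62 in wild type. Those of PSMG2, PSMD5, PSMD9 and PSMG3 lay below it, and PSMG3 was not called.

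**Figure D3:**
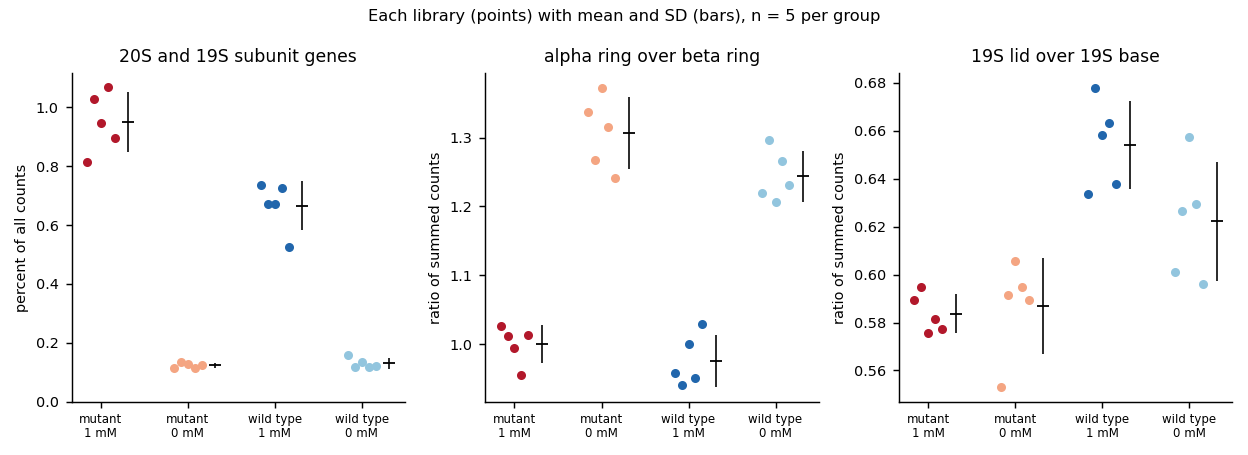
The share of all counts taken by the 38 subunit genes (percent, left), the summed counts of the alpha ring over the beta ring (middle) and of the lid over the base (right) are shown for each library (points) with mean and SD (bars, n = 5 per group). The share is highest in exposed mutants and the alpha to beta ratio is lower in exposed libraries of both genotypes, while the lid to base ratio is lower in mutants than in wild type at 1 mM (axes of both ratios do not start at 0).

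Without arsenite, 13 of the 52 proteasome genes were called lower in mutants than in wild type, where 7.91% of all genes were called lower. By edgeR 0 were called higher (5.91% of all genes), with 0 at an unadjusted p under 0.05 and 0 by DESeq2. The log2 difference was above 0 for 8 of 52 genes (50.4% of all genes) and below 0 for 37 of 38 subunits, with a median of -0.21 over the 52 genes, against 0.00 over all genes tested. The calls covered 6 of 12 base genes, 3 of 9 lid genes, 1 of 10 alpha-ring genes, 1 of 7 beta-ring genes and 2 of 6 assembly factors. Median differences were -0.30 for the base, -0.25 for the lid, -0.20 for the alpha ring, -0.18 for the beta ring and -0.04 for the assembly factors. Classes were not tested against each other. With total counts as library sizes the median was -0.04, against 0.18 over all genes, 20 of 52 genes were positive and 1 was called lower. Over all 16389 genes tested, 2587 were then called in either direction, against 2265 with TMM. Of these calls, 74.1% were higher, against 42.7% with TMM.

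PSMD8 (ENSDARG00000020454), a lid subunit that in yeast joins the lid last, differed most. It had 26, 30.1, 35.5, 26.9 and 29.96 CPM in unexposed mutants, against 54.7, 43.7, 53.3, 42.4 and 46.4 CPM in unexposed wild type. The groups did not overlap, the log2 difference was -0.70 ± 0.10 (adjusted p = 1.08e-04), and the call held under all alternatives tried. PSMC1 (ENSDARG00000030537) had 39.3, 35.5, 39.4, 32.5 and 37.1 CPM in unexposed mutants, against 65.1, 44.3, 50.1, 44 and 42.3 CPM in unexposed wild type. PSMD12 (ENSDARG00000052377), a lid subunit, had 32.4, 34.9, 41.8, 37.8 and 31.7 CPM in unexposed mutants, against 53.8, 44, 59.4, 46.9 and 38.3 CPM in unexposed wild type. Their differences were -0.42 ± 0.10 (adjusted p = 0.0109) and -0.44 ± 0.11 (adjusted p = 0.0128). The libraries of PSMC1 were separated and those of PSMD12 overlapped. With PSMC5, these made 3 genes without overlap and lower in mutants (PSMD8, PSMC1 and PSMC5), where 6.12% of all genes were.

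Of the other calls, PSMD3 (ENSDARG00000018124), a lid subunit, had 48.4, 64.2, 52.7, 42 and 60.5 CPM in unexposed mutants, against 91.3, 58.4, 82.4, 65.8 and 71.8 CPM in unexposed wild type. PSMD2 (ENSDARG00000099653), named for a scaffold subunit of the base, had 22.2, 28.7, 29, 25.1 and 25.8 CPM in unexposed mutants, against 39.2, 28.2, 37.6, 30.5 and 34.1 CPM in unexposed wild type. PSMD5 had 9.36, 9.23, 8.85, 7.15 and 10.6 CPM in unexposed mutants, against 15, 11.5, 11.9, 10.8 and 10.4 CPM in unexposed wild type. In all 3 the groups overlapped, and unexposed wild-type replicate 1 was the highest library. The differences were -0.47 ± 0.13 (adjusted p = 0.0188), -0.38 ± 0.10 (adjusted p = 0.0192) and -0.40 ± 0.11 (adjusted p = 0.0194). PSMD10 and PSMB6, whose levels are given above, differed by -0.52 ± 0.15 (adjusted p = 0.0204) and -0.44 ± 0.13 (adjusted p = 0.0249). The remaining 5 calls were PSMA5, PSMC4, PSMC5, PSMD4 and psmc1b, with differences of -0.47 to -0.28.

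Of the 13 calls, 10 were lost without at least 1 of the 20 libraries. Without unexposed wild-type replicate 1, the library with the highest macrophage and neutrophil markers, 3 genes were called lower (PSMD8, PSMC1 and PSMD12). The 10 lost calls had adjusted p of up to 0.155. Leaving out unexposed mutant replicate 4, unexposed wild-type replicate 3 or unexposed mutant replicate 1 left 5, 6 and 7 calls. With both libraries that stood apart left out, 5 were called lower. Exocrine pancreas markers summed to 103 to 1368 CPM in unexposed mutants, against 33.7 to 209 CPM in unexposed wild type, and with their level as a covariate 1 gene was called lower. A fit of these 2 groups alone also called 1. The part of the pancreas and immune markers in the result was not tested further.

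With arsenite more genes were higher than lower in mutants. In exposed mutants 11 of 52 genes were called higher than in exposed wild type, where 7.68% of all genes were called higher, and 1 was called lower, PSMC3IP (12.9% of all genes). For 13 genes the exposed mutant libraries all lay above the exposed wild-type ones (6.66% of all genes). The log2 difference was positive for 44 of 52 genes (46.8% of all genes) and 36 of 38 subunits, with a median of 0.21, against -0.03 over all genes tested. The calls covered 3 of 10 alpha-ring genes, 5 of 12 base genes, 3 of 6 assembly factors, 0 of 7 beta-ring and 0 of 9 lid genes. The class medians lay closer together: 0.21 for the alpha ring, 0.19 for the beta ring, 0.25 for the base and 0.17 for the lid. The difference was positive for 7 of 7 beta-ring and 8 of 9 lid genes, and classes were not tested against each other. With total counts as library sizes 40 genes were called higher and 0 lower, and the median of 0.49 lay 0.24 above the 0.25 of all genes. Calls over all 16389 genes tested also grew, to 5470 in either direction, against 3369 with TMM. Of these calls, 78.5% were then higher, against 37.4% with TMM. Hepatocyte markers were lower in exposed mutants than in exposed wild type for 12 of 15, and endothelial markers for 3 of 6. Exocrine pancreas markers were higher for 4 of 12, with a summed level of 14.2 to 623 CPM in exposed mutants, against 17.4 to 48.8 CPM in exposed wild type. With the pancreas markers as a covariate 11 genes were called higher, and the part of the hepatocyte and endothelial markers was not tested.

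PSMG2 showed the smallest adjusted p of the 12. Its 5 exposed mutant libraries, listed above, all lay above the 5 exposed wild-type ones, with a log2 difference of 0.55 ± 0.12 (adjusted p = 0.00169). PSMC6 (ENSDARG00000037038) had 236, 223, 237, 232 and 229.6 CPM in exposed mutants, against 173, 175, 163, 190.4 and 175 CPM in exposed wild type. PSMC2 (ENSDARG00000020101) had 186, 211, 229, 256 and 201 CPM in exposed mutants, against 153, 178, 153, 172 and 141 CPM in exposed wild type. PSMC3 (ENSDARG00000007141) had 223, 267, 249, 273 and 243 CPM in exposed mutants, against 206, 188, 183, 197 and 172 CPM in exposed wild type. All 3 are ATPases of the base, their libraries did not overlap, and the differences were 0.40 ± 0.09 (adjusted p = 0.00235), 0.44 ± 0.10 (adjusted p = 0.00363) and 0.41 ± 0.11 (adjusted p = 0.0120).

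PSMA5 and psmd4b were separated in the same way, with differences of 0.39 ± 0.10 (adjusted p = 0.0108) and 0.51 ± 0.14 (adjusted p = 0.0133). PSMD10 and PSMG1 were higher by 0.55 ± 0.13 (adjusted p = 0.00615) and 0.78 ± 0.21 (adjusted p = 0.0108), though their libraries overlapped. PSMA2, PSMA3 and PSMC4 were higher by 0.32, 0.31 and 0.27. PSMC3IP had a log2 difference of -1.02 ± 0.34 (adjusted p = 0.0398), a call lost without exposed wild-type replicate 1 (adjusted p = 0.174), its highest library, exposed wild-type replicate 2 or exposed mutant replicates 1, 3, 4 or 5. The call of PSMA3 was lost without 9 of the 20 libraries (adjusted p of up to 0.0788) and that of PSMC4 without 8 (up to 0.0845). The other 9 of the 12 calls held whichever library was left out and under the other settings tried.

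The estimated arsenite response was larger in mutants for each of the 37 subunits other than psma6l, and for 12 of them the difference passed the test. The difference between the responses (mutant change minus wild-type change, an interaction term in edgeR) was called higher for 14 of 52 genes, where 1.31% of all genes were called higher. It was called lower for 0 members (2.67% of all genes), with 0 at an unadjusted p under 0.05 and 0 by DESeq2. It was positive for all 37 subunits other than psma6l and for 45 of 52 genes, where 45.3% of all genes tested were positive. The median over the 52 genes was 0.46, against -0.05 over all genes. With total counts as library sizes 21 genes were called. Over all 16389 genes tested, 802 were then called in either direction, against 652 with TMM. Of these calls, 53.9% were higher, against 32.8% with TMM. Across the 37 subunits other than psma6l, the mutant and wild-type changes ran in parallel (Pearson r = 0.90, Spearman rho = 0.87). That correlation is across genes, which are not independent, and the same libraries lie behind each gene.

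By class, the difference was called for 9 of 12 base genes, 2 of 10 alpha-ring genes, 0 of 7 beta-ring genes, 1 of 9 lid genes, 2 of 6 assembly factors and 0 of 6 activators or inhibitors. The median difference was 0.55 for the base, 0.36 for the alpha ring, 0.40 for the beta ring, 0.47 for the lid and 0.60 for the assembly factors, and classes were not tested against each other. PSMD10 had the largest difference of the called genes, 1.07 ± 0.20 (adjusted p = 0.00484). PSMD8 followed at 0.74 ± 0.14 by adjusted p (0.00527), with a wild-type change of 1.42 and a mutant change of 2.17. It averaged 133 ± 7.86 CPM in exposed mutants and 129 ± 11.5 CPM in exposed wild type, a log2 difference of 0.05 ± 0.10 (adjusted p = 0.796), whereas its unexposed levels differed as given above.

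PSMA5 differed by 0.71 ± 0.15 (adjusted p = 0.00973), PSMC4 by 0.55 ± 0.13 (adjusted p = 0.0197), PSMD2 (ENSDARG00000099653) by 0.61 ± 0.15 (adjusted p = 0.0229) and PSMD5 by 0.64 ± 0.15 (adjusted p = 0.0240). PSMA2 (ENSDARG00000035679), an alpha-ring subunit, had 123, 132, 129, 137 and 123 CPM in exposed mutants, against 30.5, 27.7, 29.2, 24.7 and 27.8 CPM in unexposed mutants, and 111, 107, 101, 109 and 89.6 CPM in exposed wild type, against 40.01, 30.2, 35.9, 31.4 and 30.3 CPM in unexposed wild type. PSMC5 (ENSDARG00000015315), a base ATPase, had 207, 227, 224, 221 and 222 CPM in exposed mutants, against 58.8, 60.3, 61.2, 51.9 and 56 CPM in unexposed mutants, and 190.3, 189, 182, 203 and 174 CPM in exposed wild type, against 89.9, 63.9, 73.7, 64.6 and 66.1 CPM in unexposed wild type. PSMA2 was lowest on average in unexposed mutants and highest in exposed mutants, and its responses differed by 0.58 ± 0.13 (adjusted p = 0.0159). For PSMC5 they differed by 0.55 ± 0.13 (adjusted p = 0.0215). The other calls were PSMC1, PSMC2, PSMC3, PSMD1, PSMD4 and psmd4b, with differences of 0.52 to 0.77 and adjusted p of 0.0377 to 0.0467.

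Of the 14 genes, 9 were also called lower in unexposed mutants and 7 higher in exposed mutants, and PSMA5, PSMC4 and PSMD10 were called in all 3 comparisons, which share libraries. The 8 genes PSMD10, PSMD8, PSMA5, PSMA2, PSMC4, PSMC5, PSMD2 (ENSDARG00000099653) and PSMD5 were called whichever library was left out. The other 6 lost the call without 12 to 17 of the 20 libraries, with adjusted p of up to 0.0934. Leaving out exposed mutant replicate 2, 3, 4 or 5, unexposed mutant replicate 4 or 5, or exposed wild-type replicate 2, 3 or 5 left 8 calls each. Leaving out unexposed mutant replicate 1, 2 or 3 or unexposed wild-type replicate 3 left 9 calls each. Without unexposed wild-type replicate 1 and exposed wild-type replicate 5 together, 6 genes were called and the median difference was 0.36. With exocrine pancreas markers as a covariate 8 were called, and DESeq2 called 25.

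**Figure D4:**
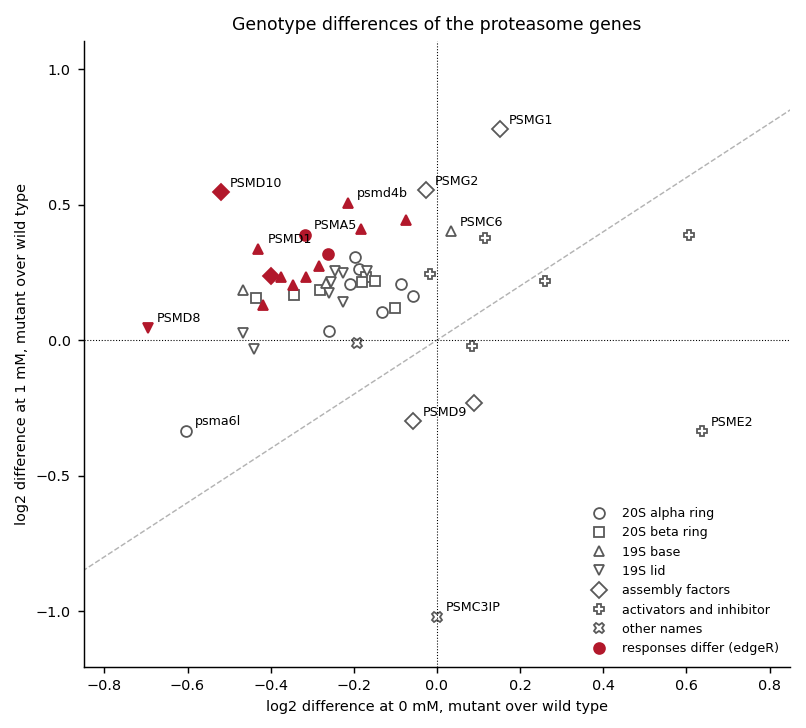
For each of the 52 genes the log2 difference of mutants over wild type at 1 mM arsenite (vertical axis) is drawn against that at 0 mM (horizontal axis), with a symbol for each class; filled red symbols mark the 14 genes whose responses differ by edgeR, and on the dashed line both differences are equal. Most subunits lie in the upper left, lower in mutants without arsenite and higher with it, and PSMD8 lies far left at about 0 on the vertical axis.

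Pairs of identifiers with the same symbol, or with names that mark a second copy, had positive log2 changes in both genotypes and were called higher, except that of the PSME4 pair only 1 was called. It was not settled whether identifiers with the same symbol are separate genes or duplicates of the assembly. PSMA2 changed by 2.20 ± 0.10 in mutants and 1.62 ± 0.09 in wild type, and psma2a (ENSDARG00000040121) by 1.63 ± 0.12 in mutants and 1.34 ± 0.12 in wild type. PSMC1 changed by 1.94 ± 0.11 in mutants and 1.39 ± 0.11 in wild type, and psmc1b (ENSDARG00000043561) by 1.98 ± 0.15 in mutants and 1.33 ± 0.15 in wild type. The 2 identifiers named PSMA6 changed by 1.93 and 2.17 in mutants and by 1.48 and 1.76 in wild type. For PSMD2 the 2 identifiers changed by 2.23 and 2.21 in mutants and by 1.62 and 1.73 in wild type, and for PSMD11 by 2.59 and 2.44 in mutants and by 2.16 and 1.97 in wild type. The members of a pair were not tested against each other. PSMA8 (ENSDARG00000010965), which RefSeq lists for zebrafish with psma7 as a synonym, changed by 1.79 ± 0.10 in mutants and 1.49 ± 0.10 in wild type; in mammals PSMA8 is a testis subunit and PSMA7 the common one.

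A list of 33 genes that work with the proteasome was read beside the members, 32 of them tested. It holds 19S parts with other names, assembly and shuttle factors, ubiquitin genes and the regulators of proteasome transcription. In mutants 24 were called higher with arsenite (31.5% of all genes) and 3 lower (30.3%). In wild type 25 were called higher (28.7%) and 3 lower (24.6%). The 25 include MAFG (ENSDARG00000100097), which averaged 0.454 CPM in exposed and 0.0839 CPM in unexposed wild type. MAFG passed the filter on low counts through the exposed libraries, so its call is not read as a result. The median log2 change over the 32 genes was 1.09 in mutants and 0.95 in wild type. The 5 smallest adjusted p were those of TXNL1, USP14, rad23ab, VCP and uba1 in mutants and of TXNL1, rad23ab, USP14, uba1 and UBQLN4 in wild type. TXNL1 (ENSDARG00000011921), a thioredoxin-like protein bound to the proteasome in mammals, had 189, 217, 204, 219 and 207 CPM in exposed mutants, against 39.8, 45.3, 41.9, 37.7 and 41.3 CPM in unexposed mutants, and 205, 196, 169.6, 189 and 148 CPM in exposed wild type, against 53.8, 51.3, 54.2, 46.4 and 52.7 CPM in unexposed wild type. It changed by 2.33 ± 0.09 in mutants (adjusted p = 1.31e-13) and 1.81 ± 0.09 in wild type (adjusted p = 8.64e-12), with no overlap between doses.

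The shuttle factor gene rad23ab (ENSDARG00000058984) changed by 2.37 ± 0.13 in mutants and 1.81 ± 0.13 in wild type, and the ubiquilin gene UBQLN4 (ENSDARG00000052975) by 1.96 ± 0.12 in mutants and 1.61 ± 0.12 in wild type. USP14, the deubiquitinase that docks on the base, had 124, 151, 135, 134 and 136 CPM in exposed mutants, against 27.3, 28.3, 32.3, 24.7 and 29.9 CPM in unexposed mutants, and 123, 119.7, 115, 128 and 101 CPM in exposed wild type, against 48.5, 32.8, 41.3, 33.1 and 31.4 CPM in unexposed wild type. It changed by 2.26 ± 0.12 in mutants and 1.65 ± 0.12 in wild type, with no overlap. The gene uba1, which encodes the main ubiquitin-activating enzyme, changed by 1.36 ± 0.08 in mutants and 1.13 ± 0.08 in wild type. The 19S parts ADRM1 and SEM1 rose by 1.87 and 1.24 in mutants and by 1.35 and 0.91 in wild type. POMP, the chaperone that completes the core, rose by 1.99 in mutants and 1.59 in wild type. VCP, the segregase that unfolds ubiquitinated proteins for the proteasome, had 807, 902, 901, 911 and 876 CPM in exposed mutants, against 183, 239, 233, 180.3 and 220.2 CPM in unexposed mutants, and 813, 823, 789, 853 and 714 CPM in exposed wild type, against 368, 242, 289, 241 and 268 CPM in unexposed wild type. Its doses were far apart, with changes of 2.06 ± 0.12 in mutants and 1.50 ± 0.11 in wild type. The difference of responses was called higher for 3 of the 32 genes (1.31% of all genes) and lower for 0 (2.67%). The responses of TXNL1, USP14 and the ubiquitin ligase gene ube3a differed by 0.52, 0.61 and 0.40 (adjusted p = 0.0250, 0.0371 and 0.0489), all larger in mutants. TXNL1 and USP14 were called lower in unexposed mutants (-0.33 and -0.39) and not called between exposed genotypes (0.19 and 0.22). The gene ube3a was not called without arsenite (-0.16) and was called higher in exposed mutants (0.24). Of the 32 genes, 1 was called higher (5.91% of all genes) and 5 lower (7.91%) in unexposed mutants than in unexposed wild type. In exposed mutants 5 were called higher (7.68% of all genes) and 2 lower (12.9%) than in exposed wild type.

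Not all of the list rose. The 3 genes called lower in both genotypes were NFE2L2, ECPAS and rps27a. NFE2L2, the regulator of antioxidant genes, averaged 63 ± 9.24 CPM in exposed mutants and 165 ± 31.7 in unexposed mutants, and 62.7 ± 10.8 CPM in exposed wild type and 133 ± 17.1 in unexposed wild type, a change of -1.39 ± 0.15 in mutants and -1.09 ± 0.15 in wild type. The second copy nfe2l2b was not called (-0.35 ± 0.37 in mutants and -0.81 ± 0.37 in wild type). Its relative nfe2l1b was higher, by 1.88 ± 0.15 in mutants and 1.73 ± 0.15 in wild type. The identifier named NFE2L1 was called higher by 2.53 ± 0.64 in mutants and 2.99 ± 0.65 in wild type. It averaged only 1.39 CPM in unexposed mutants and 1.47 CPM in unexposed wild type, and its wild-type groups overlapped. DDI2, the protease that activates NFE2L1 in mammals, was not called (-0.02 ± 0.09 in mutants, adjusted p = 0.865, and 0.06 ± 0.09 in wild type, adjusted p = 0.612). ECPAS, which detaches the 19S particle from the core under oxidative stress in yeast and mammals, changed by -0.68 on the log2 scale in mutants and by -0.38 in wild type. The gene rps27a, which encodes ubiquitin fused to a ribosomal protein, changed by -0.62 in mutants and by -0.58 in wild type. Other ubiquitin genes went the other way. UBB and ubb were called higher, by 0.75 and 0.99 in mutants and by 0.76 and 0.73 in wild type. The gene ubc was called higher in wild type (0.39) and was not called in mutants (0.17). Ubiquitin genes hold repeated near-identical sequence, so how their reads were counted is uncertain.

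**Figure D5:**
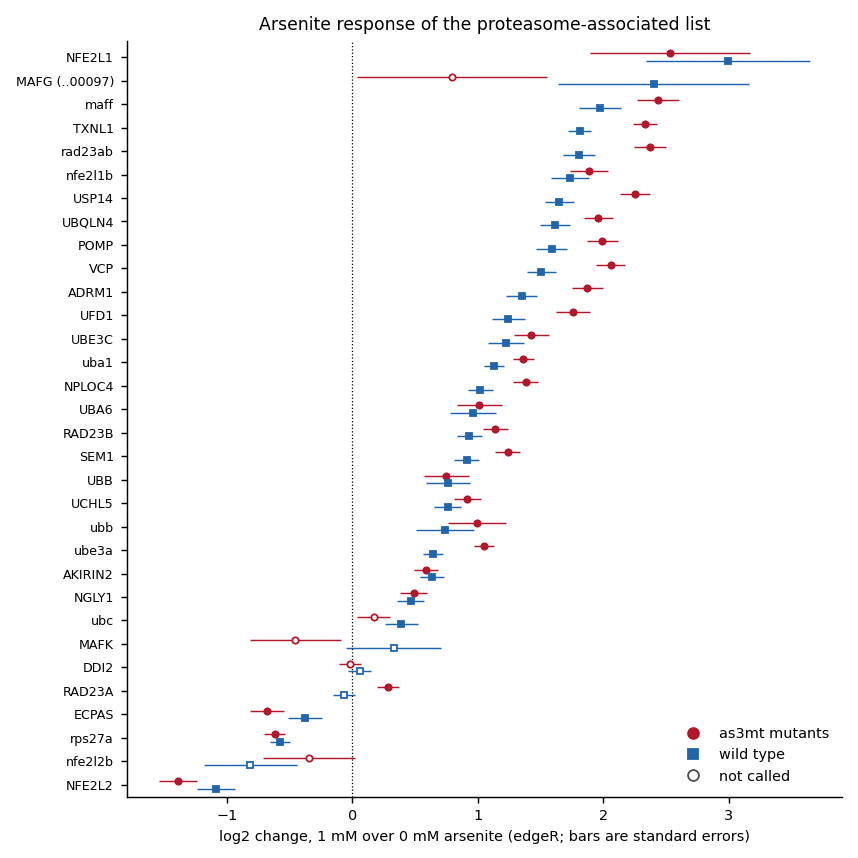
The log2 change with arsenite (1 mM over 0 mM, horizontal axis) is drawn for the 32 tested genes of the list of proteasome partners, for mutants (red circles) and wild type (blue squares) with standard errors; open symbols were not called by edgeR. TXNL1, rad23ab, USP14, VCP and POMP lie well to the right of 0 in both genotypes, and NFE2L2, rps27a and ECPAS lie to the left.

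The immunoproteasome genes, which replace catalytic beta subunits in immune cells of mammals, stayed low. Of 6 such genes 4 passed the filter on low counts, and their mean level in any group was at most 1.33 ± 1.28 CPM, in exposed wild type for PSMB10. PSMB9 had 0.123, 0.923, 0.363, 0.222 and 0.198 CPM in exposed mutants, against 0, 0.108, 0, 0.0287 and 0 CPM in unexposed mutants, and 0.520, 0.184, 2.65, 0.590 and 0.0265 CPM in exposed wild type, against 0.0456, 0, 0, 0 and 0.0351 CPM in unexposed wild type. Exposed wild-type replicate 3 was again the highest library and replicate 5 the lowest exposed one. PSMB9, psmb12 and psmb13a passed that filter through the exposed libraries, so no call or fold is given for them. The gene psmb13a had 0 counts in all 5 unexposed wild-type libraries. PSMB10 was called higher with arsenite in wild type (2.02 ± 0.66, adjusted p = 0.0145) and was not called in mutants (1.06 ± 0.63, adjusted p = 0.151). Its groups overlapped in both genotypes.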

How the data were processed

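RNA of 20 pools of microdissected zebrafish larval livers was sequenced, 5 libraries in each of 4 groups. The authors deposited 1 table per library with raw counts, whole numbers listed by Ensembl identifier. FastQC 0.11.5, Trimmomatic 0.36 and the build GRCz10 are named, per the submitters' processing notes. The aligner, the counter, the annotation release and the strand setting are not given in the sources used here, and the labels name both a non-stranded and a directional kit, so overlapping genes and near-identical copies are uncertain. Symbols for 26269 of 32105 identifiers (81.8%) came from a name table, and RefSeq names were used only as names.

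Starting from the counts, edgeR 4.0.16 (R 4.3.3) fitted 1 mean per group to all 20 libraries with TMM scaling, after its default filter left 16389 genes. Quasi-likelihood tests were adjusted by Benjamini-Hochberg over those genes, and a gene was called at an adjusted p under 0.05. The standard error is the size of the log2 change over the square root of F. The fit was also run on simulated counts with known changes in 1 group, as many up as down. That setting does not test the scaling between doses. Library totals are given with the results, and the biological coefficient of variation was 0.28. No pair of libraries within a group agreed within counting noise. Alternatives were DESeq2 1.42.0 and its size factors, total counts, other filters, robust dispersions, only the groups compared, replicate blocks, an exocrine pancreas covariate, and leaving out each library. Leaving out both libraries that stood apart was chosen after seeing the data. The genes and lists were chosen with earlier results of these data known. Named with values in each library were the largest and smallest change per class in wild type, the catalytic beta subunits, genes not called with arsenite, and up to 8 calls per genotype comparison and for the difference of responses. PSME2, PSMD14, PSMB9 and PSMB10 were named after their values were seen. A gene of the list of proteasome partners is not reported here.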

Additional observations from a re-analysis of the deposited data

Results flagged for a closer look

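The responses to arsenite differed between mutants and wild type, by a test of the difference itself, for 14 of 52 genes, each with the larger change in mutants. Of all genes tested, 1.31% were called in that direction. The calls were not equally stable: 8 of the 14 held whichever library was left out, and 6 held under all alternatives. The differences on the log2 scale were 1.07 for PSMD10, 0.77 for PSMD1, 0.74 for PSMD8, 0.72 for psmd4b and 0.71 for PSMA5. They were 0.64 for PSMD5, 0.61 for PSMD2 (ENSDARG00000099653), 0.59 for PSMC3 and 0.58 for PSMA2. They were 0.55 for each of PSMC4, PSMC5, PSMC1 and PSMD4 and 0.52 for PSMC2. The calls of PSMD1, psmd4b, PSMC3, PSMC1, PSMD4 and PSMC2 were lost when some single libraries were left out.

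Among 176 groups of 5 libraries, 9 held a library far from the other 4. Chance marks about 1 in 20 groups, which is near the number found, and genes of the same library are not independent. Exposed wild-type replicate 5 was low in 4 of the 9 groups: PSMB2 at 69.0 CPM, psma2a at 71.1 CPM, the 20S core genes at 0.247% of counts and the assembly factors at 0.0117% of counts. Unexposed wild-type replicate 1 was high in 2, PSMC3 at 79.6 CPM and psmc1b at 78.2 CPM. The others were exposed mutant replicate 2 for PSMA6 (ENSDARG00000019398) at 128 CPM, exposed mutant replicate 1 for PSMC4 at 245 CPM and exposed wild-type replicate 4 for PSMD8 at 149 CPM.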

How the results depend on the processing

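The arsenite calls held best: all 49 in wild type and 48 of 49 in mutants were kept, where tested, under the 10 alternative settings and whichever of the 20 libraries was left out, PSMD9 in mutants being the exception. These counts include psma6l, whose call is not read as a result. With total counts as library size PSMG3 in mutants turned to 0.68. Genes called lower in unexposed mutants, 13 in the report, numbered 1 with total counts, 1 with only the groups compared, 1 with the exocrine pancreas covariate, 8 with no filter, 5 at a mean of at least 10 CPM, 5 without both libraries that stood apart, and 3 to 15 with single libraries left out. Genes called higher in exposed mutants, 11 in the report, numbered 40 with total counts, 24 at a mean of at least 10 CPM and 19 with only the groups compared. Total counts also gave 5470 calls over all genes in that comparison, against 3369 with TMM. The single call lower there became 0 with total counts, no filter, the higher filter, only the groups compared and the pancreas covariate, and 0 to 1 with single libraries left out. Differences of responses called higher, 14 in the report, numbered 25 with DESeq2, 8 with no filter, 8 with the pancreas covariate, 6 without both libraries that stood apart, and 8 to 17 with single libraries left out. The no-filter setting tests more genes, and the cause of the other shifts was not tested. With the replicate number as a block over all libraries, the calls numbered 50 and 49 with arsenite in wild type and mutants, 11 lower in unexposed mutants, 10 higher in exposed mutants, and 11 for the difference; with a block within genotype the difference gave 12. Same-numbered libraries did not deviate together in every pair (correlations of 0.047 to 0.19 between exposed and unexposed mutants, 0.016 to 0.20 between exposed and unexposed wild type, and -0.080 to 0.40 between exposed mutants and exposed wild type). Between unexposed mutants and unexposed wild type they were 0.025 to 0.20. Of 5 numbers, 4 correlated best with their own in each comparison of doses and 3 in that of exposed genotypes, which is a hint of a shared unit. The labels end in cl1 to cl5 in each group but do not say that the number marks a shared clutch or day, so the main fit has no block. Whether the number marks one was not settled by these correlations. The planned promoter motif counts were not run, since no promoter sequence was used here. Depth limits psma6l, PSMC3IP, MAFG and the immunoproteasome genes, which had few counts without arsenite.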
